A study of Mus musculus with 8 samples.

Results

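The insulin-like growth factor (IGF) axis genes examined here were 1 ligand (Igf1), 2 receptors (Igf1r and Insr) and 6 binding proteins (Igfbp2 to Igfbp7). The members were the rows of the gene table that carried these symbols, 9 of 17121 rows, and all 9 passed the filter on low values (17066 genes did). They were selected on being present in a table that holds only genes reaching at least 95 in some library, and the list was drawn up with earlier results of these data known. The highest deposited value of a member lay between 2083 (Igfbp5) and 13371 (Igfbp7), so none stood near that limit. Bulk RNA-seq of mouse testis was compared between 2 genotypes, 4 libraries of the controls (CTL) and 4 of N6amt1-SKO (SKO). N6amt1 encodes a methyltransferase that acts with TRMT112, and the series asks what it does during meiosis in the making of sperm. The labels give no strain, age or treatment, do not spell out SKO or how the allele was made, and do not say that the libraries came from separate animals. The p-values therefore reflect library-to-library spread alone, and that spread may be technical.

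IGF1 is a secreted growth factor that signals through the IGF1 receptor, a tyrosine kinase closely related to the insulin receptor, and from there through the PI3K-AKT-mTOR and MAPK branches. The binding proteins are secreted carriers that hold IGFs in the extracellular space, extend or limit their access to the receptor, and release them when proteases such as PAPP-A cut them. In the testis, IGF and insulin receptor signalling is known for its role in Sertoli cell proliferation and testis size, and the Leydig and peritubular cells are known sources of IGF1.

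The 3 members that rose in SKO were binding proteins, Igfbp3, Igfbp4 and Igfbp6, and the sequences before their transcription starts are given for reference, as the genes whose values differed between the groups. They are the 250 bases upstream of the RefSeq start in GRCm38.p6, written 5′ to 3′ on the gene's strand, at chr11:7213924-7214173 (minus strand, Igfbp3), chr11:99040994-99041243 (plus strand, Igfbp4) and chr15:102143936-102144185 (plus strand, Igfbp6). Capitals mark matches on either strand to 3 common promoter motifs. The GC box was searched as GGGCGG. The TATA box search required the letters TATAAA exactly. For the CCAAT box these same letters were searched. No matches overlap in these windows.
Igfbp3: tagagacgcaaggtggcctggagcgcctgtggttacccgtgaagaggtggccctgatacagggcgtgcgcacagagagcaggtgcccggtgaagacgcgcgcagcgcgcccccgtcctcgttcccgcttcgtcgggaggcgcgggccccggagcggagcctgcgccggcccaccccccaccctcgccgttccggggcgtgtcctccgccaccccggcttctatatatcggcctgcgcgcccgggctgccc
Igfbp4: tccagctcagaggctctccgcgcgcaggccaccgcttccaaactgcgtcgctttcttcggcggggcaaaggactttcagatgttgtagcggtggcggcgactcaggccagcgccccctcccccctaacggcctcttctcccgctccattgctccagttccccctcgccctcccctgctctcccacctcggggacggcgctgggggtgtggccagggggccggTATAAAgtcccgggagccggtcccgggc
Igfbp6: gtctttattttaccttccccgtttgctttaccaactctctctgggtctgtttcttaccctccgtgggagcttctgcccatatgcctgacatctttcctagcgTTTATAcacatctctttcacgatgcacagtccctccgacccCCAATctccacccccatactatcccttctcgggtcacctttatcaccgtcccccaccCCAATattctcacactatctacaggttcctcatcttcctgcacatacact
The Igfbp3 window was 73.2% GC and held none of the 3 motifs. The Igfbp4 window was 69.2% GC with 1 TATA box at position -28 from the start. The Igfbp6 window was 49.6% GC, with 1 TATA box at -148 and 2 CCAAT boxes. This RefSeq start lies upstream of the GENCODE M21 start of Igfbp6 (chr15:102144362), so the annotations differ there. Of 32851 RefSeq promoter windows of the same length, 32.7% held a GC box, 12.4% a TATA box and 33.8% a CCAAT box, and the median was 52.4% GC. No motif of these stood in all 3 windows, and a match or its lack says only which letters stand there.

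In GRCm38 (GENCODE M21), Igfbp3 lies on the minus strand at chr11:7206086-7213923 and Igfbp4 on the plus strand at chr11:99041244-99054392. Igfbp6 lies on the plus strand at chr15:102144362-102149511 and Igfbp7 on the minus strand at chr5:77349240-77408041. Igfbp2 (chr1:72824503-72852474, plus strand) and Igfbp5 (chr1:72857932-72874884, minus strand) lie tail to tail, 5457 bases apart, with 0 coding genes between them. Igf1 lies on the plus strand at chr10:87858265-87937042, Igf1r on the plus strand at chr7:67952827-68233668 and Insr on the minus strand at chr8:3122061-3279617. Of the exon bases of Igfbp7, 7.03% overlap Polr2b on the other strand. The library kit does not mark strand, so reads from that stretch cannot be told apart. No other member has such an overlap.

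Column totals of the deposited table were 94.2 to 103.1 M. In 6 libraries the scaling factor could be recovered, which gave 40.6 to 70.1 M reads. In CTL 1 and CTL 2 it could not, so their depth is unknown. The lowest member value in those 6 libraries rested on 127 reads (Igfbp5, counting error 8.87%). 18S ribosomal RNA made up 0.721% to 0.969% of the values in CTL 3, CTL 4 and SKO 4 and 0.173% to 0.273% in the other libraries. N6amt1 itself was at 513 ± 84.6 (SD, n = 4) in CTL and 582 ± 31.1 (n = 4) in SKO, with overlapping groups (log2 fold change 0.19 ± 0.17 SE, limma adjusted p = 0.437), so its level does not check the genotype labels. Germ cell markers were high in every library, as the label testis has it: the 10 spermatocyte markers summed to 591120-784690 in CTL and 478280-541170 in SKO. The spermatid markers split both groups: their sum was 504830, 609850 and 515930 in CTL 1, CTL 2 and SKO 1 and 75530 to 228200 in the other 5 libraries. The extraction protocol names heart ventricles. Of 6 heart markers, 3 were tested, and they summed to 625-1081 in CTL and 1259-2258 in SKO. Of 18 Sertoli markers, 14 rose and 0 fell in SKO. Their sum was 110280-220330 in CTL and 222430-424260 in SKO. No tested marker was at 0 in any library. In bulk tissue, fewer cells of a type and less RNA per cell cannot be told apart.

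Expression per kilobase of exon is a level that allows genes to be set beside each other. By the CTL mean, Igfbp7, Igfbp6, Igfbp2 and Igfbp4 stood above the ligand and receptor genes, and Igfbp3 and Igfbp5 below them. In CTL the mean normalised value per kb was 4126 ± 1780 (SD, n = 4) for Igfbp7, which binds IGFs only weakly, and 2546 ± 630 for Igfbp6, which prefers IGF2. Igfbp2 followed at 812 ± 270 and Igfbp4 at 731 ± 54.3. Igf1 stood at 338 ± 186, Igf1r at 252 ± 83.8, Insr at 150 ± 19.3, Igfbp3 at 125 ± 29.7 and Igfbp5 at 58.0 ± 23.8. Neighbours whose CTL ranges overlapped were Igfbp7 and Igfbp6, Igfbp2 and Igfbp4, Igf1 and Igf1r, and Insr and Igfbp3. The other neighbours held the same order in 4 of 4 CTL and 4 of 4 SKO libraries.

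In SKO the order was Igfbp7 at 7435 ± 2450, Igfbp6 at 4689 ± 726, Igfbp4 at 1196 ± 294, Igfbp2 at 1086 ± 416, Igf1 at 457 ± 180, Igfbp3 at 447 ± 202, Igf1r at 317 ± 73.7, Insr at 178 ± 41.0 and Igfbp5 at 109 ± 130. By the mean, Igfbp3 moved from the eighth place to the sixth, but in SKO 4 it stood at 192, below Igf1r at 267. Insr was above Igfbp3 in 3 of 4 CTL libraries and in 0 of 4 SKO libraries.

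**Figure D1:**
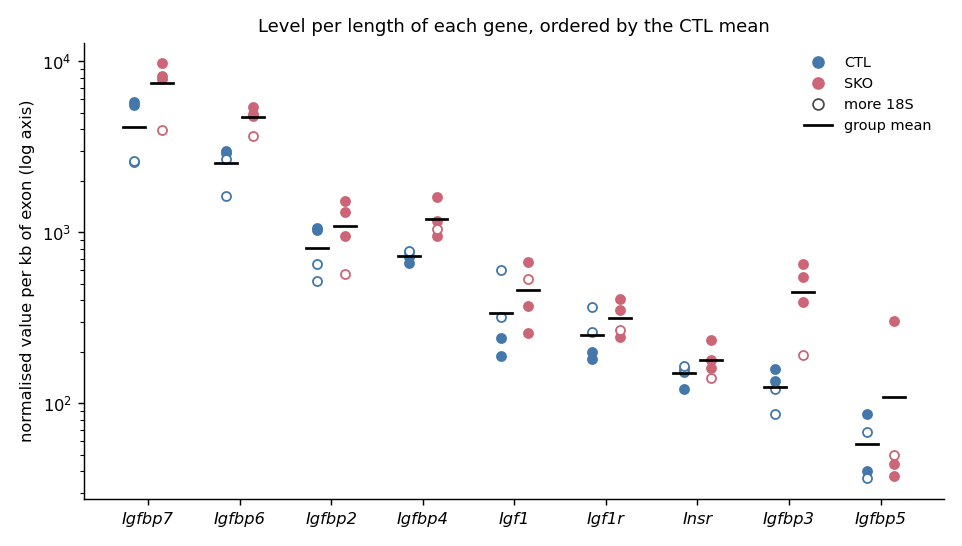
Normalised value per kb of exon (log axis) of each of the 9 members, ordered by the CTL mean. Points are libraries (CTL blue, SKO red, open where 18S is higher) and lines are group means. Igfbp7 and Igfbp6 have the highest means and Igfbp5 the lowest in both groups, and Igfbp3 passes Insr in the SKO libraries.

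Relative to CTL, 3 of the 9 members rose in SKO and 0 fell (limma adjusted p under 0.05 over all 17066 genes). Of all genes tested, 11.9% rose and 7.94% fell. At an unadjusted limma p under 0.05 there were 4 members, all higher, against 6319 of the 17066 genes tested, in either direction. The log2 fold change was above 0 for 9 of 9 members, as it was for 8952 of the 17066 genes tested. The members' median log2 fold change was 0.49 against 0.04 over all genes. In 3 members the groups did not overlap, with SKO higher, which held for 15.6% of all genes. Because the members were chosen with results known, these counts are a description and nothing is read from them. Among all called genes 60.1% had risen, against 49.2% with median-ratio factors and 91.5% with library totals, which moved the median of all genes to 0.33. All 9 members kept an estimate above 0 under each of these scalings.

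**Figure D2:**
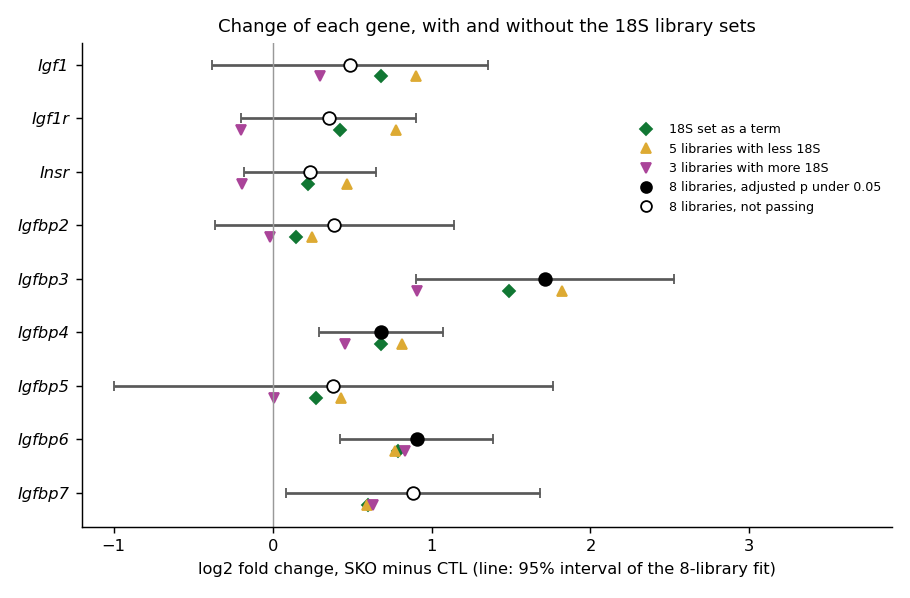
Log2 fold change (SKO minus CTL) of each of the 9 members. Circles with lines are the fit of 8 libraries and its 95% interval (filled where adjusted p is under 0.05), diamonds have the 18S set as a term, and triangles are the 5 libraries with less 18S (up) or the 3 with more (down). All 9 circles are above 0, and those of Igfbp3, Igfbp4 and Igfbp6 are filled.

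Igfbp3, the main carrier of IGFs in blood and a secreted matrix-associated protein in tissues, changed most. The normalised values in the CTL libraries, in the order 1 to 4, were 494, 422, 272 and 380. The SKO libraries, in the same order (used throughout), gave 1221, 1714, 2054 and 602. Every SKO library was above every CTL library, with SKO 4 nearest to them. The mean rose from 392 ± 92.9 to 1398 ± 631 (SD, n = 4 each). The log2 fold change, taken from mean log2 values, was 1.71 ± 0.36 (SE, 95% interval 0.90 to 2.53, limma adjusted p = 0.0167), or 3.28-fold. Without CTL 3 the adjusted p was 0.0506 and without SKO 3 it was 0.0612, with the log2 fold change at 1.48 in the latter. In the 5 libraries with less 18S the change was 1.82, and in the 3 with more, of which 1 was SKO, it was 0.91 (adjusted p = 0.331).

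Igfbp6, which holds IGF2 more tightly than IGF1, was next. Its values were 3303, 3236, 2985 and 1801 in CTL and 5427, 5335, 6005 and 4088 in SKO, again without overlap. Means were 2831 ± 700 and 5214 ± 807 (SD, n = 4 each). The log2 fold change was 0.91 ± 0.22 (SE, 95% interval 0.42 to 1.39, limma adjusted p = 0.0221), or 1.87-fold. The call was lost without CTL 3 (adjusted p = 0.0551), SKO 1 (0.0583), SKO 2 (0.0597) or SKO 3 (0.0771). In the libraries with less 18S the log2 difference was 0.77 (adjusted p = 0.0165), and in the 3 with more, which hold 1 SKO library, it was 0.83 and the call was lost (adjusted p = 0.255).

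Igfbp4, a binding protein cut by PAPP-A, had values of 2906, 3185, 3403 and 3419 in CTL. In SKO they were 4201, 7135, 5168 and 4617. The CTL libraries lay close together and all SKO libraries were above them. The mean went from 3228 ± 240 to 5280 ± 1298 (SD, n = 4 each). The log2 fold change was 0.68 ± 0.17 (SE, 95% interval 0.29 to 1.07, limma adjusted p = 0.0271), or 1.60-fold. The call was lost without CTL 1 (adjusted p = 0.0684), CTL 2 (0.0605), CTL 3 (0.0705), SKO 2 (0.0571) or SKO 3 (0.0806), in 5 of 8 such fits, with log2 fold changes of 0.53 to 0.68, and without CTL 1 and CTL 2 together (0.55, adjusted p = 0.0941). In the libraries with less 18S the change was 0.82 (adjusted p = 0.0325), and in the 3 with more, which hold 1 SKO library, it was 0.45 and did not pass (adjusted p = 0.453). Leaving out SKO 3 left no gene of the whole table past the threshold (limma, smallest adjusted p 0.0569, 4784 genes at an unadjusted p under 0.05).

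Igfbp7, secreted into the matrix, gave 6742, 6957, 3093 and 3160 for the CTL libraries against 9486, 11733, 9948 and 4790 for the SKO libraries. The groups overlapped because SKO 4 was below CTL 1 and CTL 2. Means were 4988 ± 2152 and 8989 ± 2962 (SD, n = 4 each), and the log2 fold change of 0.88 ± 0.36 (SE, 95% interval 0.08 to 1.68) missed the threshold (limma adjusted p = 0.104). CTL 3, CTL 4 and SKO 4, the libraries with the low values, were those with more 18S. With the 18S set as a term the change was 0.60 ± 0.11 (SE, limma adjusted p = 0.00636), but with the set drawn from both identical 18S rows, which also moves SKO 2 and SKO 3 into it, it was 1.07 ± 0.28 (adjusted p = 0.0147). The change was 0.59 in the libraries with less 18S (adjusted p = 0.0206) and 0.63 in the 3 with more, which hold 1 SKO library and did not pass (adjusted p = 0.301).

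Igfbp2, a binding protein that also binds integrins and matrix, was at 1891, 1956, 955 and 1199 in CTL and 2420, 2796, 1763 and 1047 in SKO, with overlapping groups. Means were 1500 ± 500 and 2007 ± 769 (SD, n = 4 each), a log2 difference of 0.39 with a 95% interval of -0.36 to 1.14 (limma adjusted p = 0.435). It ranged from 0.14 without CTL 3 to 0.67 without SKO 4. Igfbp5, the least expressed member, was at 243, 521, 219 and 410 in CTL and 226, 1828, 267 and 298 in SKO. SKO 2 alone stood high. Without it the log2 difference turned from 0.38 (limma adjusted p = 0.695) to -0.31.

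**Figure D3:**
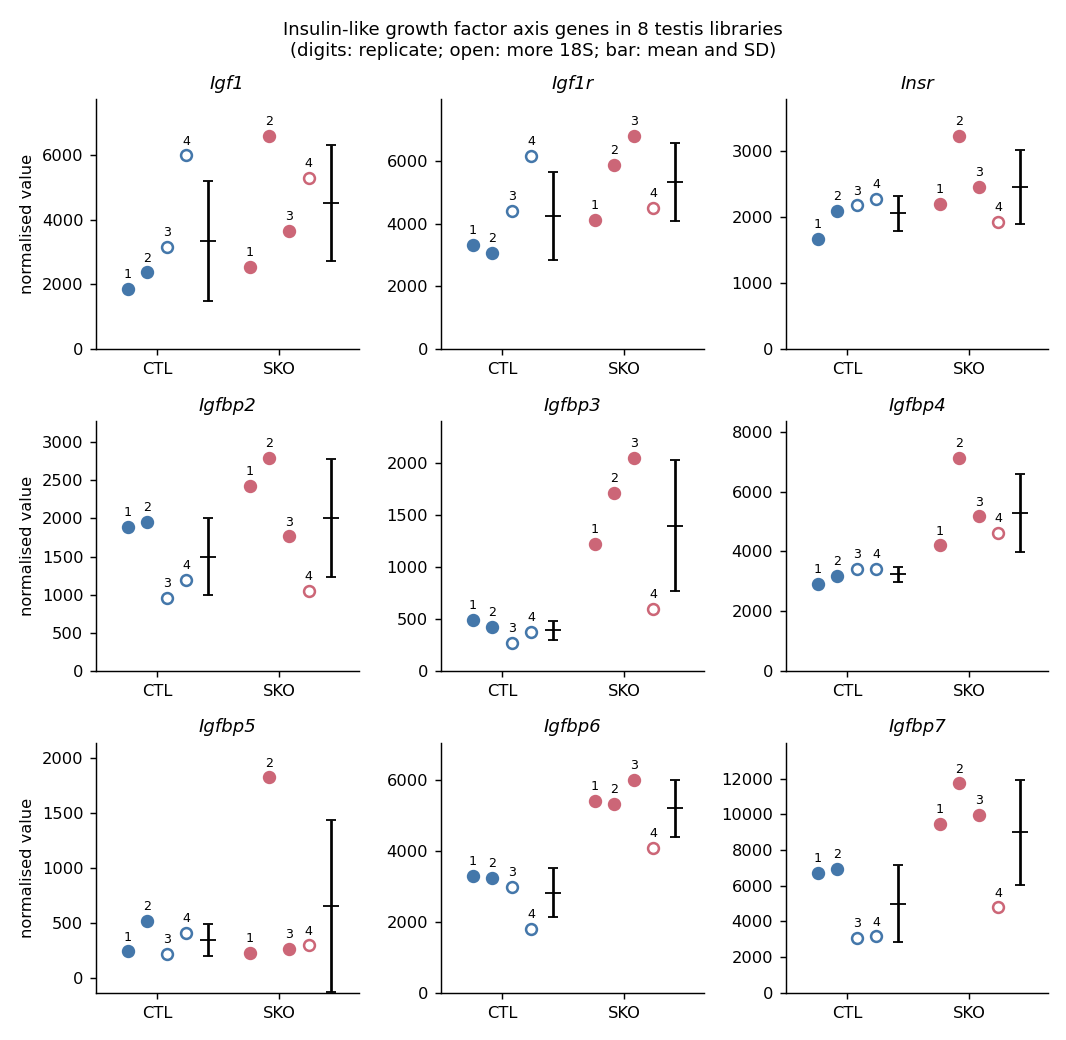
Normalised value of each of the 9 members in the 8 libraries, CTL 1 to 4 and SKO 1 to 4, with the group mean and SD as a bar beside them. Digits name the replicate and open points the libraries with more 18S. Igfbp3, Igfbp4 and Igfbp6 show no overlap between groups, Igfbp7 splits within each group, and the high Igfbp5 value is SKO 2.

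Within the summed level of Igfbp2 to Igfbp7 per kb, which was 8398 ± 2500 in CTL and 14960 ± 3860 in SKO (SD, n = 4 each), Igfbp7 made up 47.6% and 48.8% and Igfbp6 31.0% and 32.3%. The share of Igfbp3 was 1.54% ± 0.37 in CTL and 2.88% ± 0.83 in SKO, with ranges of 1.26% to 2.08% and 2.02% to 3.99% that overlapped. Igfbp2 went from 9.66% ± 1.38 to 7.12% ± 1.43, with ranges of 7.77% to 11.1% and 5.8% to 8.5% that also overlapped. These shares are a description, with no test.

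Igf1, the ligand, varied as much within groups as between them. It was at 1863, 2374, 3155 and 5991 in CTL and 2535, 6601, 3665 and 5284 in SKO. Means were 3346 ± 1842 and 4521 ± 1787 (SD, n = 4 each), a log2 difference of 0.49 with a 95% interval of -0.38 to 1.36 (limma adjusted p = 0.393) that spans 0.

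Igf1r, its receptor, was at 3331, 3061, 4399 and 6162 in CTL and 4125, 5864, 6795 and 4489 in SKO. The log2 difference was 0.35 (95% interval -0.20 to 0.91, limma adjusted p = 0.328). In the 5 libraries with less 18S it was 0.78 and passed (adjusted p = 0.0326), and in the 3 with more it was -0.20 (adjusted p = 0.784). Insr, the insulin receptor, was at 1674, 2097, 2176 and 2276 in CTL and 2198, 3231, 2459 and 1921 in SKO (log2 difference 0.24, 95% interval -0.18 to 0.65, limma adjusted p = 0.385). Both pairs of groups overlapped. The ratio of Igf1r to Insr per kb was 1.67 ± 0.42 in CTL and 1.80 ± 0.36 in SKO. Leaving out CTL 1 and CTL 2 together turned Igf1 to -0.084 and Igf1r to -0.048. With 1 library left out, Igf1 ranged from 0.21 (without CTL 1) to 0.78 (without CTL 4), Igf1r from 0.17 (without CTL 2) to 0.52 (without CTL 4) and Insr from 0.093 (without CTL 1) to 0.34 (without SKO 4). CTL 1, CTL 2 and SKO 1, the libraries with the high spermatid marker sums, had the 3 lowest values of Igf1 and of Igf1r, and the part of spermatids in this was not tested.

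The level of each member was also set against the mean log2 level of the Sertoli markers of the same library. This mean was 12.21, 12.14, 11.49 and 11.65 in CTL and 13.03, 13.05, 13.15 and 12.52 in SKO. Relative to it, Igfbp4 differed by -0.38, Igfbp6 by -0.16 and Igfbp7 by -0.18 (SKO minus CTL, log2), all with overlapping groups. Igfbp3 remained 0.65 higher, but SKO 4, at -3.28, lay within the CTL range. Igfbp2 was the only member whose SKO libraries were all below the CTL libraries (-0.68). Igf1, Igf1r and Insr were at -0.58, -0.71 and -0.83 with overlap. Relative to the means of the stromal fibroblast, peritubular myoid, macrophage, Leydig and endothelial markers, Igfbp3 was higher in every SKO library than in every CTL library, by 1.27, 1.19, 1.24, 1.81 and 1.53. Igfbp4 was likewise higher without overlap relative to the Leydig (0.78) and endothelial (0.50) markers, and Igfbp6 relative to the myoid markers (0.38). Against the other lists of these 5, Igfbp4 and Igfbp6 overlapped between the groups. Of the 7 tested myoid markers, 4 rose and 0 fell, and of the 9 stromal markers, 2 rose and 0 fell. Of 10 markers each, 1 Leydig, 1 macrophage and 2 endothelial markers rose and 0 fell. The Leydig marker mean was 11.12 in CTL and 11.03 in SKO. Of the 9 tested spermatogonia markers, 4 rose and 0 fell, with sums of 18305-21725 in CTL and 29297-34789 in SKO. The part of these cell types in the members' changes was not tested.

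**Figure D4:**
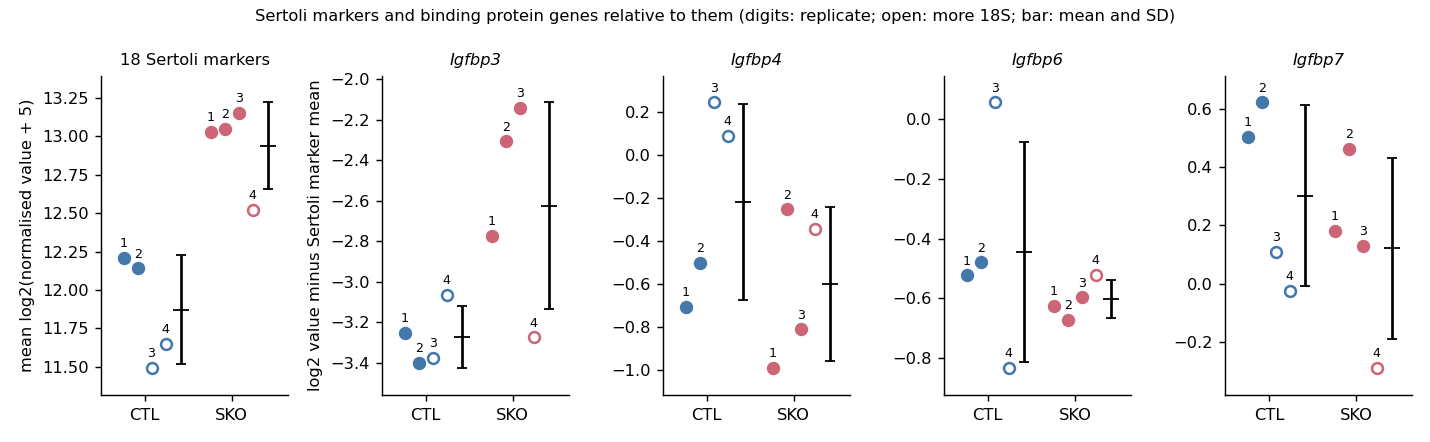
Left, mean log2(normalised value + 5) of the 18 Sertoli markers per library; then the log2 value of Igfbp3, Igfbp4, Igfbp6 and Igfbp7 minus that mean, with digits naming the replicate, open points for more 18S and bars for mean and SD. The SKO libraries are above the CTL libraries in the marker panel and overlap them in the 4 gene panels.

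Likeness of profile was measured as the mean absolute difference of centred log2 values over the 8 libraries. The closest gene to Igfbp3 was Pdlim4 (0.229), then Edn1 (0.255), against a median of 0.907 over all genes. Igfbp7 was closest to Sparc (0.0797) and P3h1 (0.0946), Igfbp6 to Lhpp (0.0668) and Lrp10 (0.0742), and Igfbp4 to Gpd1 (0.0437) and Sema6b (0.0661). Igfbp2 was closest to Ggh (0.0634) and Stk32c (0.128) and Igfbp5 to Tgfb2 and Ncald (0.303 each). Igf1 was closest to Lrp4 (0.116) and Acot2 (0.129), Igf1r to Sema5a (0.0566) and Ino80d (0.0623), and Insr to Fut11 (0.0428) and Ehd4 (0.0489). Among the members, the closest pairs were Insr and Igfbp4 (0.223), Igf1r and Insr (0.24) and Igfbp2 and Igfbp7 (0.247).

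The rest of the pathway was taken from lists of 88 other genes, of which 79 were tested. Of these, 12 rose and 7 fell, near the shares of all genes (11.9% and 7.94%), with a median log2 fold change of 0.15. With library totals 30 rose, and with median-ratio factors 7 did. Among the proteases of binding proteins and their inhibitors, 2 of 6 rose and 0 fell. Stc2, an inhibitor of PAPP-A, was at 325, 391, 250 and 351 in CTL and 568, 942, 701 and 653 in SKO, 2.15-fold higher without overlap (limma adjusted p = 0.0147). Htra3, a secreted serine protease, rose 1.62-fold (limma adjusted p = 0.0394). Pappa itself was at 2441 ± 401 in CTL and 1726 ± 370 in SKO (SD, n = 4 each) and missed the threshold (limma adjusted p = 0.089), although the groups did not overlap.

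The cation-independent mannose 6-phosphate receptor gene Igf2r, which clears IGF2, stood at 3406 ± 586 in CTL against 4432 ± 922 in SKO (limma adjusted p = 0.179, SD over 4 libraries each). The ligand gene Igf2 had no row in the gene table, so its level was not seen here. The carrier subunit gene Igfals and the relaxin-like hormone gene Insl3 were near the bottom of the table, at 76.2 and 65.6 and at 87.4 and 93.9 in CTL and SKO. Insl6 (limma adjusted p = 0.519) and Ghr, the growth hormone receptor (0.358), did not pass. Stat5b, a transducer of the growth hormone signal, rose 1.71-fold (limma adjusted p = 0.0264), as 1 of 5 genes of that list.

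Of 13 receptor adaptors, 3 rose and 0 fell: Grb14, which inhibits the insulin receptor kinase (2.26-fold, limma adjusted p = 0.0123), Grb2, which links receptors to RAS (1.84-fold, 0.0123), and Shc1 (1.61-fold, 0.0461). Irs1 and Irs2, the main docking proteins, did not pass (0.991 and 0.212). Among the PI3K and AKT genes, the kinase gene Akt1 rose (1.49-fold, 0.0418). The catalytic subunit gene Pik3cd (2.23-fold lower, 0.0123), the phosphatase gene Inpp5d (2.06-fold lower, 0.0166) and Phlpp1, whose product dephosphorylates AKT (1.97-fold lower, 0.0246), fell.

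Of 14 mTOR genes, Rheb, which activates mTORC1 (1.57-fold, limma adjusted p = 0.0168), and Rps6kb2 (1.84-fold, 0.0251) rose, and the kinase gene Mtor fell (1.77-fold lower, 0.0221). Of 9 FOXO and GSK3 genes, 3 rose, Foxo6 (2.02-fold, 0.0132), Foxo4 (1.66-fold, 0.0429) and Ccnd1 (1.48-fold, 0.0367), and 0 fell. FOXO factors are held back by AKT, and Ccnd1 encodes a cyclin. Shc1, Phlpp1 and Ccnd1 were named after their values were seen. In the MAPK branch 0 of 9 rose and Braf fell (1.41-fold lower, 0.0271). Igf2bp3, an RNA-binding protein of IGF2 mRNA, fell (1.77-fold lower, 0.0134). Of the 10 spermatocyte markers, 3 fell and 0 rose. Ccna1, Pgk2 and Ldhc were lower in SKO without passing. Sycp3, Sycp1, Meiob and Spata22 were higher without passing (log2 fold changes 0.20, 0.31, 0.28 and 0.20). The part of spermatocytes in the falls of the pathway genes was not tested.

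**Figure D5:**
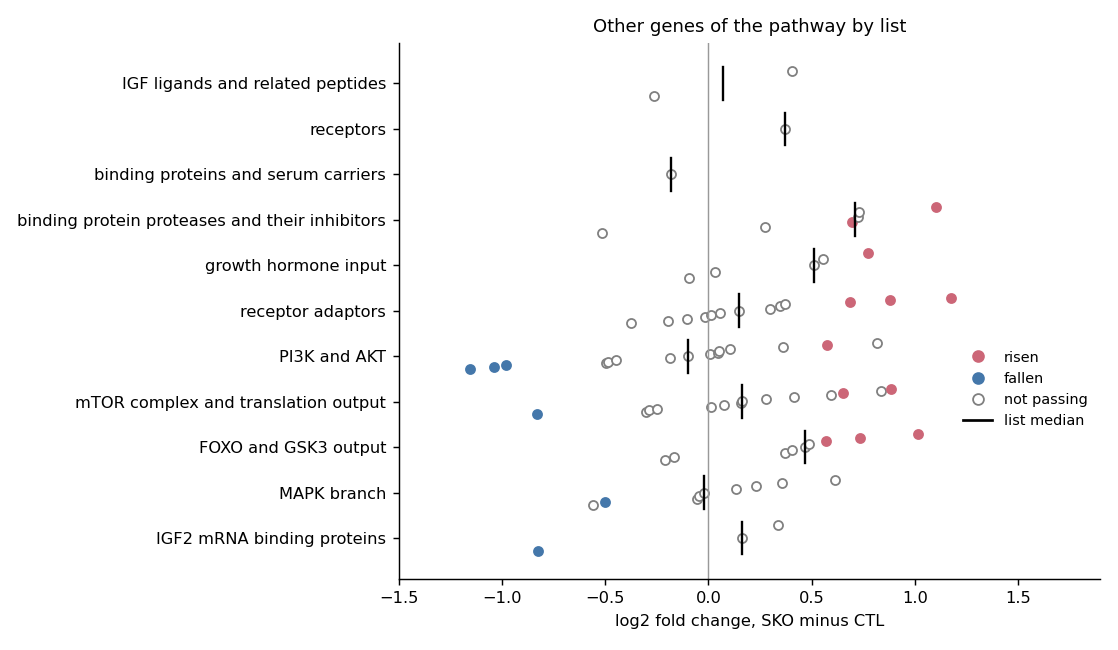
Log2 fold change (SKO minus CTL) of tested pathway genes by list, 1 point a gene (filled where adjusted p is under 0.05) and a line for the median of the points shown. Filled points to the right are found among protease, growth hormone input, adaptor, PI3K and AKT, mTOR and FOXO genes. Filled points to the left are in the PI3K and AKT, mTOR, MAPK and IGF2 mRNA binding protein lists.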

How the data were processed

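Total RNA of mouse testis was measured by RNA-seq in 8 libraries, grouped by title. Tools named in the submitters' processing notes are HISAT2 2.0.5, featureCounts 1.5.0-p3, fastp and CASAVA, and the build is mm10. The authors deposited 1 table of a score, read counts multiplied by 1 factor per library and rounded, as read from the values: in 6 libraries 100.0% of values up to 1000 were such multiples, against 43.1% to 68.0% from spacing alone. How the factors were set is not stated in the sources, and 0 columns were left out.

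TMM factors (log-ratio trim 30%, level trim 5%) were applied to the values, which were filtered at 25 or more in at least 4 libraries, and fitted as log2(value + 5) with limma 3.58.1 in R 4.3.3 (trend, no covariate, two-sided, Benjamini-Hochberg over 17066 genes, threshold 0.05). Fold changes are differences of mean log2(value + 5), which understates low genes. Tests were checked on simulated data. Lengths and overlaps came from GENCODE M21 and promoters from RefSeq GRCm38.p6, which holds 8 of the 9 members. Genes named were all members, 12 fixed axis genes where tested, up to 2 risen and 2 fallen per list by size (or the most abundant), and the 2 most similar profiles per member. The members and lists were chosen with earlier results of these data known. The 18S row has an identical copy and was counted once, since summing it moved SKO 2 and SKO 3 over the limit of 0.5%. The version that sums both rows was run first and is kept as an alternative chosen after seeing the data. No 2 libraries were duplicates. 1 gene of the pathway lists is counted in the totals but not reported here or plotted.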

Additional observations from a re-analysis of the deposited data

Results flagged for a closer look

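Igfbp5 in SKO 2 was at 1828, against 226, 267 and 298 in the other SKO libraries, a gap of 0.955 of the group's range, past Dixon's 95% limit. Chance gives such a value in about 1 in 20 groups, and 18 groups were looked at. SKO 2 also had the highest sum of stromal fibroblast markers, 156060 against 63360 to 98525 in the other libraries; the part of these cells was not tested.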

How the results depend on the processing

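No member's estimate changed sign under other scalings, added constants or filters. Members that rose numbered 3 to 4 under these, 5 in the libraries with less 18S and 0 in the 3 with more. Leaving out 1 library gave 0 to 4 (0 without CTL 3 and without SKO 3), and 0 members fell throughout. Igfbp7 passed under library totals (adjusted p = 0.0473), with the replicate block (0.027), without CTL 1 and CTL 2 (0.0122), with the 18S term (0.00636), with less 18S (0.0206), without SKO 4 (0.0377) and with the 18S term from both identical rows (0.0147). Igf1r passed in the libraries with less 18S (0.0326). Whether the replicate numbers pair the libraries was not settled. After the group mean of each gene was subtracted, correlations of same-numbered libraries were 0.673, 0.0119, 0.082 and 0.231. That of CTL 2 with SKO 1 was 0.706. With the replicate block 4 members rose, 2162 genes rose and 1701 fell. All genes that rose numbered 4885 with library totals, 3194 with less 18S, 45 with more and 3073 with the 18S set from both identical rows, and those that fell 456, 2283, 255 and 2715, with 2322 without CTL 1 and CTL 2 and 2210 with the 18S term. Leaving out 1 library gave 0 to 2456 and 0 to 1526. Pathway genes that rose numbered 7 with median-ratio factors, 30 with library totals, 23 with less 18S and 0 with more, and 0 to 15 with 1 library left out. Those that fell numbered 13 without CTL 1 and CTL 2, 3 with more 18S, 11 with both 18S rows, and 0 to 8 with 1 library left out. Signs turned for Igf1 (-0.084) and Igf1r (-0.048) without CTL 1 and CTL 2, for Igf1r (-0.20), Insr (-0.19) and Igfbp2 (-0.013) with more 18S, and for Igfbp5 (-0.31 to 0.68 with 1 library left out) without SKO 2; the cause was not tested. Depth limits Igfbp5 and Igfbp3 most, and the depth of CTL 1 and CTL 2 is unknown.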
